A study of Mus musculus with 8 samples.

Results

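RNA seq counts were examined for 10 genes of the cristae junction in cochleae of WT and Opa1+/- mice. The genes were Immt, Chchd3, Chchd6, Apoo, Apool, Samm50, Mtx1, Mtx2, Chchd2 and Chchd10. They were chosen by name, as MICOS and associated cristae-shaping genes whose proteins act with OPA1. Each symbol had exactly 1 entry among the 47628 entries that name a gene in the count data. All 10 genes had a mean above 10 normalized counts and were tested.

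The WT group held animals 4, 5, 6 and 8, and the Opa1+/- group held animals 2 and 7 and those labelled Het_484 and Het_491, so that n was 4 in each group with 1 library per mouse. The Opa1+/- mice carry the delTTAG mutation of Opa1 as a knock-in on 1 of their 2 copies of the gene, and the WT mice were littermates. Both groups have a mixed background of C57BL/6J and 129 Sv/Pas, were untreated and, by the study's methods, were 21 days old. Homozygous mutants die before birth, so that the mutation was studied only beside a normal copy. The tissue was the cochlea, with all of its cell types in 1 extract, so fewer cells of a type and less RNA per cell cannot be told apart.

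Libraries held between 15978051 and 20828030 counts on named genes, and no pair of libraries was a duplicate. Levels are given as CPM, the counts of a gene brought to a common library size after TMM scaling, with the SD over the 4 mice of a group. Summed hair cell markers reached 211 to 302 CPM in WT and 240 to 256 CPM in Opa1+/- mice, and no marker of hair cells, spiral ganglion neurons or the stria vascularis was at 0 in every mouse. Other tissue was present as well: 10 skeletal muscle markers summed to 366 to 2746 CPM in WT and 172 to 1384 CPM in Opa1+/- mice, and WT mouse 6 had the highest sum. Erythroid markers, of which 1 of 10 had no entry or no counts in any mouse, summed to 7756 to 21469 CPM in WT and 15075 to 25065 CPM in Opa1+/- mice. Ddx3y, a Y-linked gene, was at 55.7 to 70.5 CPM in every mouse, while Xist was at most 0.392 CPM, so that by these genes all 8 mice were male. The values here, also those of the X-linked genes Apoo and Apool, thus come from males only. The paper states that its results after the first hearing tests came from both sexes.

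Cristae are the folds of the inner mitochondrial membrane that hold the respiratory chain, and each opens to the rest of the intermembrane space through a narrow neck, the cristae junction. The MICOS complex sits at this neck, bends the membrane and ties it to the sorting and assembly machinery (SAM) of the outer membrane, so that both membranes are bridged. OPA1, a dynamin-like GTPase of the inner membrane, fuses inner membranes and also keeps the junctions narrow, and it has been found bound to MICOS. Inner hair cells and auditory neurons depend on mitochondria for their energy supply, and OPA1 mutations in people cause optic atrophy, sometimes with deafness.

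Several of these genes have near-identical copies elsewhere in the genome, so that their counts are uncertain. The transcript of Apoo matched a processed pseudogene, Apoo-ps (GRCm38, chr13:107414144-107414729, minus strand), over 586 of 586 bases. The following stretch has the length of 1 sequencing read (80 bases) and covers coding bases 321 to 400 of Apoo. Capitals mark bases that differ from Apoo, and the family member Apool is shown for contrast.
Apoo: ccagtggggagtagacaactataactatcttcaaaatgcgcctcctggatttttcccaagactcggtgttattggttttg
Apoo-ps: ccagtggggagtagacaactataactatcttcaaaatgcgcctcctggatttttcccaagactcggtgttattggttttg
Apool: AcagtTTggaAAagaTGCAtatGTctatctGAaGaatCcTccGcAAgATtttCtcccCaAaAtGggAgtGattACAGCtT
A read from this stretch could belong to Apoo or to Apoo-ps. Apool differed from Apoo at 34 of the 80 bases.

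Chchd2 had the largest number of such copies. Zbed5 (chr5:129895723-129903623, plus strand), annotated as a protein-coding gene on the same chromosome as Chchd2, matched it at 98.5% over 454 bases, with 402 bases in an unbroken identical run. The processed pseudogenes Gm12350 (chr4:34485832-34486293, plus strand), Gm6222 (chrX:103762917-103763545, minus strand) and Gm4995 (chrX:142533439-142533870, minus strand) matched it at 98.9%, 94.6% and 93.5%. A further processed pseudogene, Chchd2-ps (chr4:148068031-148068492, minus strand), matched it at 98.7% over 462 bases and was not analysed further here. Coding bases 161 to 240 of Chchd2 are shown with these copies and with Chchd10, its paralog, and capitals again mark differing bases.
Chchd2: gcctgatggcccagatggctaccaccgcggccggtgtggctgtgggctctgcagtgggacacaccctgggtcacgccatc
Zbed5: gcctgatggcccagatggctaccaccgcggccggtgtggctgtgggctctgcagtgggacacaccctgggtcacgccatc
Gm12350: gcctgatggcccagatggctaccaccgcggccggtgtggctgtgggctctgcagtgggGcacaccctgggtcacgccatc
Gm6222: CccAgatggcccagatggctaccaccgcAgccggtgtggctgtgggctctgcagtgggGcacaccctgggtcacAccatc
Gm4995: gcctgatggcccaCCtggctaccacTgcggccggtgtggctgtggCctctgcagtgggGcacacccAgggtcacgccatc
Chchd10: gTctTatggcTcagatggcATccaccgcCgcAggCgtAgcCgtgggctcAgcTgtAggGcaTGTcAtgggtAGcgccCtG
Zbed5 had 0 and Gm12350 had 1 differing base in this stretch, against 22 in Chchd10.

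The count data list Apoo-ps, Zbed5, Gm12350, Gm6222 and Gm4995 as entries of their own. Apoo-ps held 2497 counts over the 8 mice, which is 60.5% of the counts given to Apoo. Its counts were 305, 354, 288 and 343 in the WT mice and 310, 336, 238 and 323 in the Opa1+/- mice. For Chchd2, the counts of Zbed5 came to 19.4%, of Gm12350 to 9.89%, of Gm6222 to 4.13% and of Gm4995 to 1.34% of its own. Immt resembled a short pseudogene, Gm19617, at 94.9% over 315 bases, but the counts there were 0.85% of those of Immt. Chchd10 shared 155 exon bases with the matrix metalloproteinase gene Mmp11 on the opposite strand, whose counts were 4.41% of its own, and Mtx1 shared 318 exon bases with Thbs3 and 759 with the locus Gm43737, both on the opposite strand. Whether strand was used in counting is not given in the sources used here, so that reads of Chchd10 and Mtx1 may be mixed with those of the genes on the opposite strand. The copies of Apoo and Chchd2 match in the same orientation, and the split of reads among them is uncertain whether or not strand was used.

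**Figure D1:**
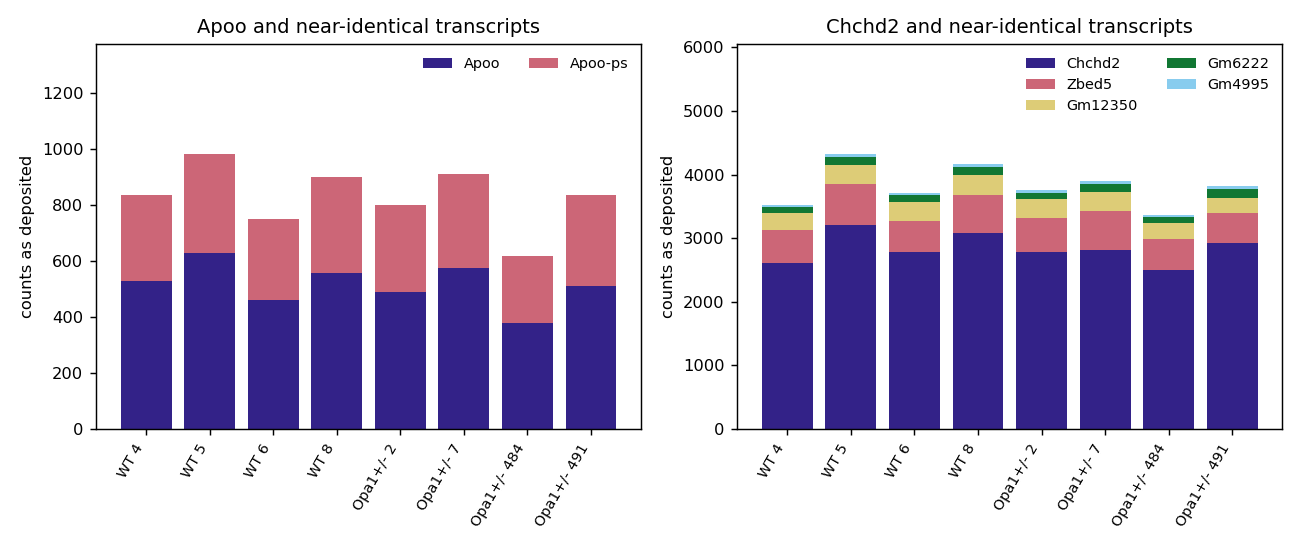
Counts as deposited for Apoo (left) and Chchd2 (right) in each of the 8 mice, with the counts of their near-identical transcripts stacked on top. Apoo-ps adds 238 to 354 counts to Apoo in each mouse, and Zbed5 adds the largest block to Chchd2 (471 to 652 counts).

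The promoters of 9 of the 10 genes were in the RefSeq promoter table (GRCm38.p6), which covers 250 bases before to 50 bases after each start, and Chchd2 was not. They were searched on both strands for the binding letters of factors that act on many nuclear genes of mitochondria. The letters CCGGAAG, a core of sites bound by GABP, were in 4 of 9 promoters, against 8.86% of all 32851 promoters of that length and 14.7% of the promoters of tested genes. The letters GCGCA, any base and GCGC, as bound by NRF1, were in 1 of 9 (Immt), against 4.6% of all promoters and 8.44% of those of tested genes. The letters AAGATGGC, as bound by YY1, were in 1 of 9 (Mtx1), against 2.75% and 3.75%. The 4 GABP-type matches upstream of a start are shown in capitals, each in a 40-base window on the strand of the gene, to let the neighbourhoods be compared.
Immt (chr6:71831185-71831224, plus strand): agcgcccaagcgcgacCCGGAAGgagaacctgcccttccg
Chchd3 (chr6:33060367-33060406, minus strand): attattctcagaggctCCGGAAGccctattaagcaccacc
Mtx1 (chr3:89213908-89213947, minus strand): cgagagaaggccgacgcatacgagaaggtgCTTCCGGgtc
Mtx2 (chr2:74825771-74825810, plus strand): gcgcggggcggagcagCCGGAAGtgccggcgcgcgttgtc
The matches begin 119, 130, 10 and 25 bases before the start in Immt, Chchd3, Mtx1 and Mtx2, and the Mtx1 window also falls inside the first exon of a longer annotated Mtx1 transcript. These are matches of letters only, and no binding was measured.

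The genotype labels were first checked on Opa1 itself. Opa1 was at 119, 126, 112 and 122 CPM in WT mice 4, 5, 6 and 8 and at 63.5, 68.4, 60.4 and 70.0 CPM in Opa1+/- mice 2, 7, Het_484 and Het_491. The groups were widely separated, and Opa1 fell to 0.548 of the WT level (95% interval 0.493 to 0.609, adjusted p = 0.00515). This p comes from the quasi-likelihood test of edgeR, adjusted over all tested genes by the method of Benjamini and Hochberg. Without Opa1+/- mouse 2 its edgeR adjusted p was 0.0704, with the log2 fold change at -0.85. The Wald test of DESeq2 gave Opa1 an adjusted p of 1.37e-26 with all mice.

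In the same mice, no gene of the cristae junction group passed the test. None of the 10 passed an adjusted p of 0.05, when 5 of 19366 tested genes did (0.0258%), and DESeq2 likewise called 0 of the 10, against 0.119% of its tested genes. At an unadjusted p under 0.05 the count was also 0 of 10, in edgeR (6.72% of all tested genes) and in DESeq2 (5.62%). The log2 fold change was above 0 in 9 of 10 genes (8 of 10 with total counts in place of TMM scaling), against 50.1% of all tested genes, with a median of 0.08 against 0.00 for all tested genes (0.04 without WT mouse 8). The highest was 0.26 (Apool) and the lowest was -0.02 (Apoo). The groups overlapped for all 10 genes, whereas 4.31% of tested genes had groups that did not overlap (1.98% with Opa1+/- mice higher and 2.33% with them lower). The 95% intervals of the fold, Opa1+/- over WT, covered 1 in each gene and were narrowest for Immt and Mtx2 and widest for Apool. A p that misses the threshold does not show that these mRNAs were equal, and the intervals below give the sizes of change that the data leave possible.

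**Figure D2:**
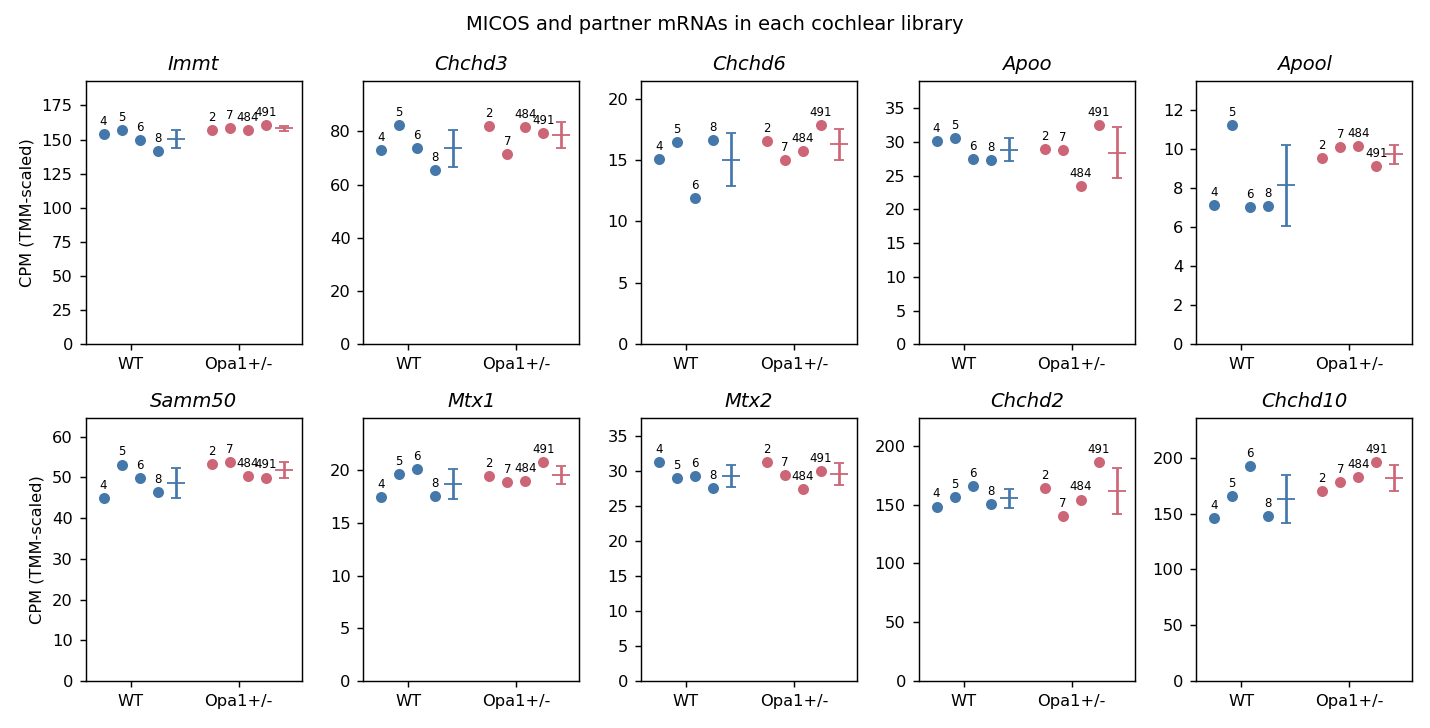
CPM of the 10 cristae junction genes in each of the 8 cochlear libraries, WT in blue and Opa1+/- in red, with animal numbers above the points and the mean with SD (n = 4) to the right of each group. The groups overlap in every panel, and the WT points of Apool hold 1 high mouse at 11.2 CPM.

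Immt encodes mitofilin (MIC60), the inner membrane protein on which the MICOS complex is built. It was at 154, 157, 149 and 142 CPM in WT mice 4, 5, 6 and 8 and at 157, 159, 157 and 161 CPM in Opa1+/- mice 2, 7, Het_484 and Het_491. The Opa1+/- mice lay close together, and of the WT mice only mouse 5 reached their range. The means were 151 ± 6.78 and 158 ± 1.87 CPM (SD, n = 4 each), a fold of 1.05 with a 95% interval of 0.965 to 1.15. Its adjusted p was 0.819, and its log2 fold change of 0.07 became 0.04 when WT mouse 8 was left out. Immt lies at chr6:71831331-71877388 on the plus strand.

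Chchd3 and Chchd6 encode MIC19 and MIC25, the subunits that bind mitofilin from the intermembrane space, and MIC19 also reaches the outer membrane through SAMM50. Chchd3 was at 73.0, 82.5, 73.6 and 65.4 CPM in the WT mice and at 82.1, 71.4, 81.6 and 79.3 CPM in the Opa1+/- mice, in the same order of animals. WT mouse 5 was the highest of all 8 and WT mouse 8 the lowest, so that WT spanned the whole Opa1+/- range. The fold was 1.07 (0.943 to 1.21, adjusted p = 0.837), and its log2 fold change of 0.09 became 0.04 when WT mouse 8 was left out and 0.15 when WT mouse 5 was. Chchd6 was lower, at 15.1, 16.5, 11.9 and 16.6 CPM in WT and 16.6, 15.0, 15.7 and 17.9 CPM in Opa1+/- mice, and the low WT value belonged to mouse 6. Its fold was 1.08 (0.905 to 1.29, adjusted p = 0.868), and its log2 fold change dropped from 0.11 to 0.02 without WT mouse 6 and to 0.06 without mouse Het_491. Chchd3 and Chchd6 lie far apart on chromosome 6, at chr6:32790976-33060260 and chr6:89383146-89595652, both on the minus strand.

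Apoo and Apool encode MIC26 and MIC27, apolipoprotein O-like subunits of the arm of MICOS that also holds MIC10 and MIC13, and both genes are on the X chromosome (chrX:94367117-94417093 and chrX:112311334-112372755, plus strand). Apoo was at 30.1, 30.6, 27.5 and 27.3 CPM in WT mice 4, 5, 6 and 8 and at 28.9, 28.8, 23.5 and 32.6 CPM in Opa1+/- mice 2, 7, Het_484 and Het_491. The lowest and the highest of all mice were both Opa1+/-, and the fold was 0.984 (0.847 to 1.14, adjusted p = 0.971). With the counts of Apoo-ps added, the WT mean was 46.1 ± 1.94 CPM and the Opa1+/- mean 46.1 ± 6.17 CPM (SD, n = 4 each), with a 95% interval of the fold from 0.866 to 1.15. The direction for Apoo was therefore not fixed by these data: its log2 fold change ran from -0.10 without mouse Het_491 to 0.06 without mouse Het_484.

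Apool was the lowest of the 10 genes, with 118 to 230 counts per mouse. It was at 7.13, 11.2, 7.05 and 7.10 CPM in the WT mice and at 9.52, 10.1, 10.1 and 9.13 CPM in the Opa1+/- mice. All 4 Opa1+/- values lay above 3 of the WT values and below that of WT mouse 5. The means were 8.13 ± 2.07 and 9.72 ± 0.484 CPM (SD, n = 4 each), a fold of 1.19 with an interval of 0.928 to 1.53 and an adjusted p of 0.787. Without WT mouse 5 the log2 fold change was 0.45 in place of 0.26, with an unadjusted edgeR p of 0.00193 and an adjusted p of 0.576, and 3.37% of the genes tested without that mouse were higher at an unadjusted p under 0.05. Without any other mouse it stayed between 0.19 and 0.28. A change of Apool past the adjusted threshold was thus not found with or without that mouse.

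Samm50, Mtx1 and Mtx2 encode outer membrane proteins. SAMM50 is the barrel-shaped insertase of the SAM complex and the outer anchor of MICOS, and the metaxins MTX1 and MTX2 attach to it from the cytosolic side. Samm50 (chr15:84192241-84217267, plus strand) was at 44.9, 53.2, 49.8 and 46.4 CPM in WT and at 53.3, 53.9, 50.4 and 50.0 CPM in Opa1+/- mice. WT mouse 5 lay within the Opa1+/- range and the other WT mice below it. The means were 48.6 ± 3.71 and 51.9 ± 2.00 CPM (SD, n = 4 each), with a fold of 1.07 (0.966 to 1.18, adjusted p = 0.794).

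Mtx1 (chr3:89209081-89227088, minus strand) was at 17.5, 19.6, 20.1 and 17.5 CPM in WT and at 19.5, 18.8, 19.0 and 20.8 CPM in Opa1+/- mice. The Opa1+/- mice fell between the lower and the higher pair of WT mice, apart from mouse Het_491 above both. Mtx2 (chr2:74825803-74878431, plus strand) was at 31.3, 29.0, 29.4 and 27.6 CPM in WT and at 31.4, 29.5, 27.5 and 30.1 CPM in Opa1+/- mice. Its ranges were nearly the same in both groups, and its fold of 1.01 (0.915 to 1.12, adjusted p = 0.973) was the nearest to 1 of the 10 genes. The fold of Mtx1 was 1.04 (0.929 to 1.17, adjusted p = 0.896). With 1 mouse left out, log2 fold changes lay between 0.06 (no WT mouse 4) and 0.14 (no WT mouse 5) for Samm50 and between 0.03 (no mouse Het_491) and 0.10 (no WT mouse 6) for Mtx1. With total counts in place of TMM scaling the log2 fold change of Mtx2 was -0.01 rather than 0.01.

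Chchd2 and Chchd10 encode paralogous proteins of the intermembrane space that bind each other and the MICOS complex, and both are mutated in inherited neurodegenerative disease in people. Chchd2 (chr5:129881156-129887470, minus strand) was at 148, 156, 166 and 151 CPM in WT mice 4, 5, 6 and 8 and at 165, 141, 154 and 187 CPM in Opa1+/- mice 2, 7, Het_484 and Het_491. The Opa1+/- mice held both the lowest and the highest value. Its fold was 1.04 (0.906 to 1.19, adjusted p = 0.920), and without mouse Het_491 its log2 fold change was -0.02 in place of 0.06. With the counts of its pseudogenes Gm12350, Gm6222 and Gm4995 added, the means were 179 ± 8.96 and 186 ± 21.1 CPM (SD, n = 4 each), and the log2 fold change was again 0.06. The counts of Zbed5, 19.4% of those of Chchd2, were not added, so that this does not cover the largest of the near-identical copies.

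Chchd10 (chr10:75933130-75937747, plus strand) was at 146, 166, 192 and 148 CPM in the WT mice and at 170, 178, 183 and 197 CPM in the Opa1+/- mice. WT mouse 6 was the second highest of all 8, and the other 3 WT mice lay below every Opa1+/- mouse. The means were 163 ± 21.7 and 182 ± 11.2 CPM (SD, n = 4 each), and the fold was 1.12 with an interval of 0.961 to 1.29. Its adjusted p of 0.775 was the lowest of the 10 genes. Without WT mouse 6 the log2 fold change was 0.25 in place of 0.16, with an unadjusted edgeR p of 0.0101 and an adjusted p of 0.636, and 3.96% of the genes tested without that mouse were higher at an unadjusted p under 0.05. WT mouse 6 also had the highest sum over 10 skeletal muscle markers, 2746 CPM, against 172 to 1384 CPM in the other mice. Mouse Het_491, with the highest Chchd10 value of all 8, had the lowest muscle sum, 172 CPM. The next highest sum, 1384 CPM, was in Opa1+/- mouse 7, with Chchd10 at 178 CPM. The part of muscle RNA in the Chchd10 level was not tested. Limma voom with sample quality weights gave Chchd10 an unadjusted p of 0.0429 and an adjusted p of 0.470, with 5.29% of all tested genes higher at an unadjusted p under 0.05.

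**Figure D3:**
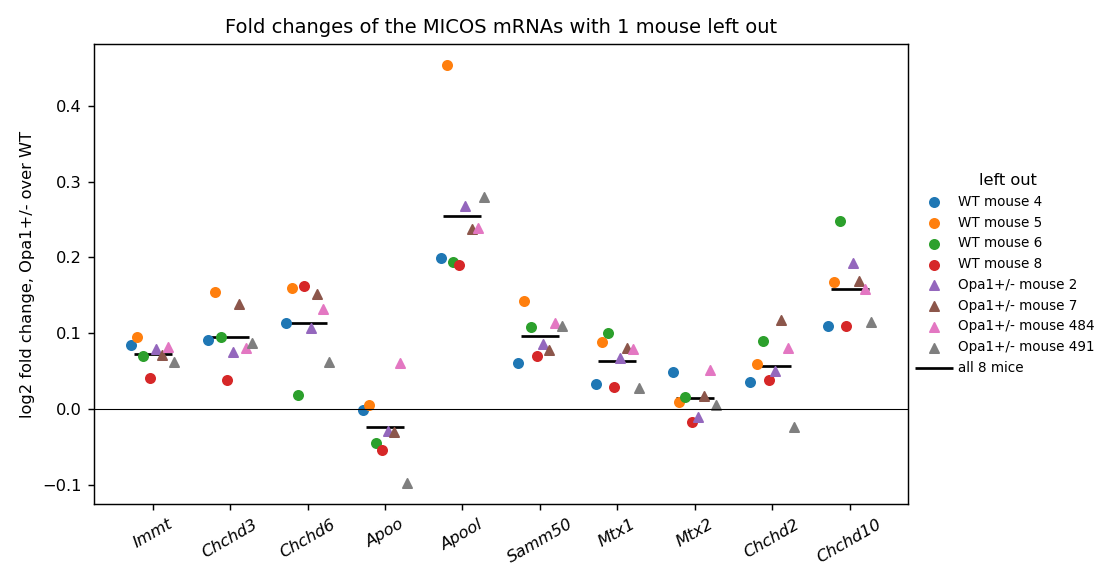
Log2 fold change of each cristae junction gene, Opa1+/- over WT, with each of the 8 mice left out in turn (circles for WT, triangles for Opa1+/-) and with all mice (black lines). Leaving out WT mouse 5 moves Apool to 0.45, leaving out WT mouse 6 moves Chchd10 to 0.25, and only Apoo, Mtx2 and Chchd2 have points on both sides of 0.

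The group holds 4 pairs of relatives, and the ratio of counts within a pair does not depend on library scaling. The coding sequences of the pairs were 60.8% to 71.8% identical, with no identical run over 14 bases, while reads were 80 bases long. The counts of Apoo and Chchd2 remain uncertain through their near-identical copies, and the ratios use the counts as deposited. For Chchd2 over Chchd10 the ratio was 1.02, 0.941, 0.863 and 1.02 in the WT mice and 0.969, 0.791, 0.843 and 0.949 in the Opa1+/- mice. For Apoo over Apool it was 4.22, 2.73, 3.91 and 3.84 in the WT mice and 3.04, 2.86, 2.31 and 3.57 in the Opa1+/- mice. In both pairs the geometric mean was lower in Opa1+/- mice, 0.885 against 0.958 and 2.91 against 3.63, but the groups overlapped. These differences moved with single mice. On the log2 scale the first was -0.11 with all mice and -0.06 without Opa1+/- mouse 7, and the second was -0.32 with all mice, -0.21 without mouse Het_484 and -0.46 without WT mouse 5. Over the 70 ways to assign the mice to 2 groups of 4, a two-sided exact permutation test gave p = 0.257 and p = 0.171, both 0.514 after Benjamini-Hochberg adjustment over the 4 ratios. With pseudogene counts added, the log2 difference was -0.115 for Chchd2 over Chchd10 (exact permutation p = 0.257). For Apoo over Apool it was then -0.296 (exact permutation p = 0.2). For Chchd3 over Chchd6 the means were 4.92 and 4.83 (exact permutation p = 0.857), and for Mtx1 over Mtx2 they were 0.636 and 0.659 (exact permutation p = 0.543). The log2 difference of Chchd3 over Chchd6 turned from -0.03 to 0.08 without WT mouse 6 and to 0.01 without mouse Het_491, and that of Mtx1 over Mtx2 from 0.05 to -0.01 without WT mouse 4. The smallest p that the test can give with all mice is 0.0286.

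Levels between genes were compared per kilobase of joined exons. Chchd10 was the highest in WT, at 103.5 ± 13.8 CPM per kilobase (SD, n = 4), followed by Chchd2 at 68.5 ± 3.49. Chchd3 at 25.3 ± 2.41 and Apoo at 23.0 ± 1.38 CPM per kilobase overlapped between mice, and Immt followed at 13.3 ± 0.597. Below them, Mtx2 (7.98) and Samm50 (7.41) overlapped, as did Chchd6 (5.94) and Mtx1 (5.21), and Apool was the lowest at 2.33 ± 0.593 CPM per kilobase. The order was the same in Opa1+/- mice for all 10 genes. The paralogs Chchd10 and Chchd2 thus had the highest level per length, ahead of Immt, which encodes the core of the complex.

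This order depends on the assignment of reads to copies and on the length that is used. With the counts of Apoo-ps added, Apoo in WT was at 36.7 ± 1.55 CPM per kilobase of joined exons, above Chchd3 in every mouse, and the 2 genes changed places while the other 8 kept theirs. Immt has 11353 bases of joined exons but 2728 bases in its longest coding transcript, and by the latter length, with the counts as deposited, it moved to the third place, at 55.2 ± 2.48 CPM per kilobase in WT, overlapping Chchd3 at 47.5 ± 4.51. Chchd2 then stood at the head with 169.9 ± 8.65 CPM per kilobase, before Chchd10 with 109.6 ± 14.6. Only Apool kept its rank, the last, and Chchd2 and Chchd10 were the upper 2 genes by both lengths.

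**Figure D4:**
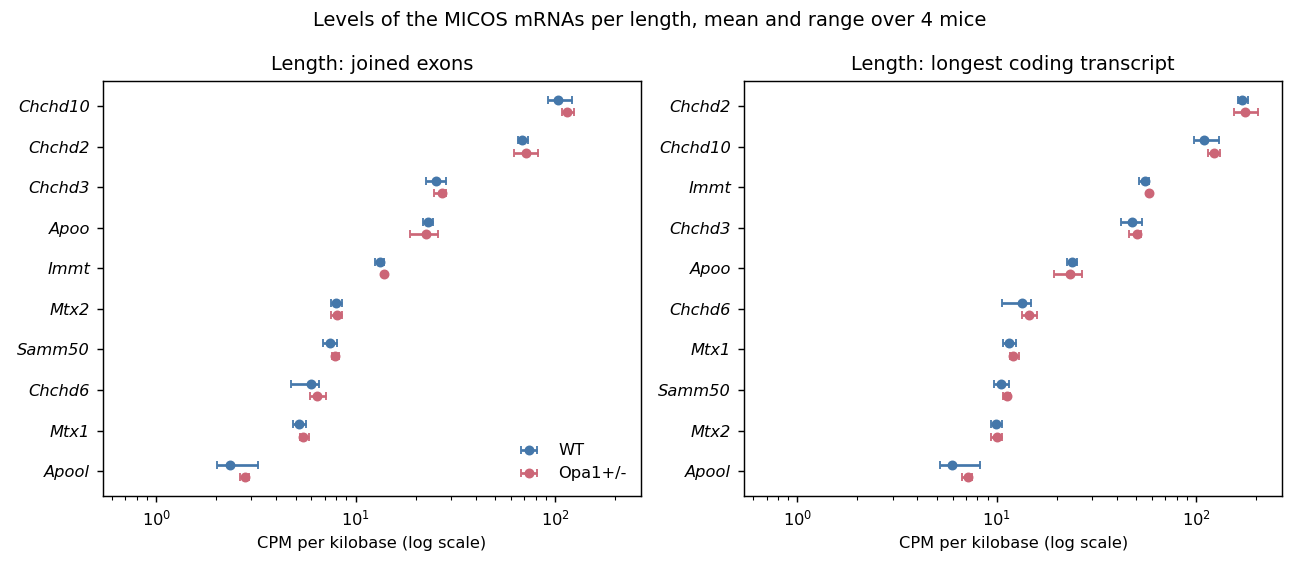
CPM per kilobase on a log scale for the 10 genes, per length of joined exons (left) and of the longest coding transcript (right), as the mean and the range over 4 WT (blue) and 4 Opa1+/- (red) mice. Chchd2 and Chchd10 lead and Apool is last in both panels, while Immt moves from the fifth to the third place.

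Next, 24 partner genes were counted in the same fit. At an adjusted p of 0.05, 1 of the 24 was called, Opa1 itself, against 0.0258% of all tested genes. At an unadjusted p under 0.05, 2 were higher and 2 lower, against 3.51% and 3.22% of all tested genes. Of the 24 log2 fold changes, 17 were above 0, against 50.1% of all tested genes, with a median of 0.05 against 0.00. DESeq2 gave 1 higher (Atp5k) and 3 lower (Opa1, Mtx3 and Slc25a46) at an unadjusted p under 0.05, against 2.76% and 2.85% of the genes to which it gave a p. Groups did not overlap in 2 of the 24, both lower in Opa1+/- mice (Opa1 and Slc25a46), against 2.33% of tested genes that were lower without overlap.

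Of the 8 other subunits and binding partners of MICOS and the SAM complex, 0 were higher and 1 was lower at an unadjusted p under 0.05 in edgeR (3.51% and 3.22% of all tested genes), and 0 were higher and 2 lower in DESeq2 (2.76% and 2.85%). The lower gene was Mtx3, the third metaxin, at 41.3, 44.2, 48.1 and 46.3 CPM in the WT mice and 39.8, 42.1, 35.6 and 42.3 CPM in the Opa1+/- mice. Its groups overlapped through WT mouse 4, its fold was 0.888 (0.793 to 0.995), and its edgeR p of 0.0425 became 0.732 after adjustment. Slc25a46, an outer membrane carrier relative that binds MICOS and OPA1, was at 74.9, 73.2, 71.6 and 77.7 CPM in WT and 68.8, 67.4, 67.4 and 71.4 CPM in Opa1+/- mice. Every Opa1+/- value was below every WT value, by a narrow margin, and the fold was 0.924, with an unadjusted p of 0.0514 in edgeR and 0.0487 in DESeq2 and an edgeR adjusted p of 0.741. The genes of the small membrane-bending subunit MIC10 (Minos1) and of MIC13 (2410015M20Rik), named here after their values were seen, had log2 fold changes of 0.07 and 0.15, with adjusted p-values of 0.849 and 0.749. That of Minos1 was 0.04 without WT mouse 8 and also without mouse Het_491.

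Of the 3 genes of the import relay that oxidizes and retains the CHCH proteins, none passed either threshold. Of all tested genes, 0.0258% passed the adjusted and 6.72% the unadjusted threshold. Gfer, the sulfhydryl oxidase of the relay, had a log2 fold change of 0.07 and Aifm1, which holds the receptor CHCHD4, had a log2 fold change of 0.01. Among 10 other cristae organisers, 2 were higher at an unadjusted p under 0.05 (3.51% of all tested genes), and the 1 that was lower (3.22%) was Opa1 itself. Atp5k, a subunit of ATP synthase dimers, which shape the cristae rims, was at 122, 110, 106 and 96.2 CPM in WT and 133, 128, 121 and 137 CPM in Opa1+/- mice. Only WT mouse 4 reached the Opa1+/- range, the fold was 1.19 (1.06 to 1.35), and the p of 0.00953 became 0.722 after adjustment. The other higher gene, Phb2, a prohibitin named after its values were seen, had a fold of 1.12 and an adjusted p of 0.736, and its unadjusted p of 0.0482 in edgeR was 0.0694 in DESeq2. Its log2 fold change was 0.11 without WT mouse 8 in place of 0.17. Among 3 other Chchd genes none passed either threshold (0.0258% and 6.72% of all tested genes), and Chchd1 and Chchd5 had log2 fold changes of 0.06 and 0.07. Both moved with single mice, Chchd1 to 0.0059 without WT mouse 8 and to 0.10 without Opa1+/- mouse 7, and Chchd5 to -0.0085 without mouse Het_491 and to 0.13 without WT mouse 6.

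**Figure D5:**
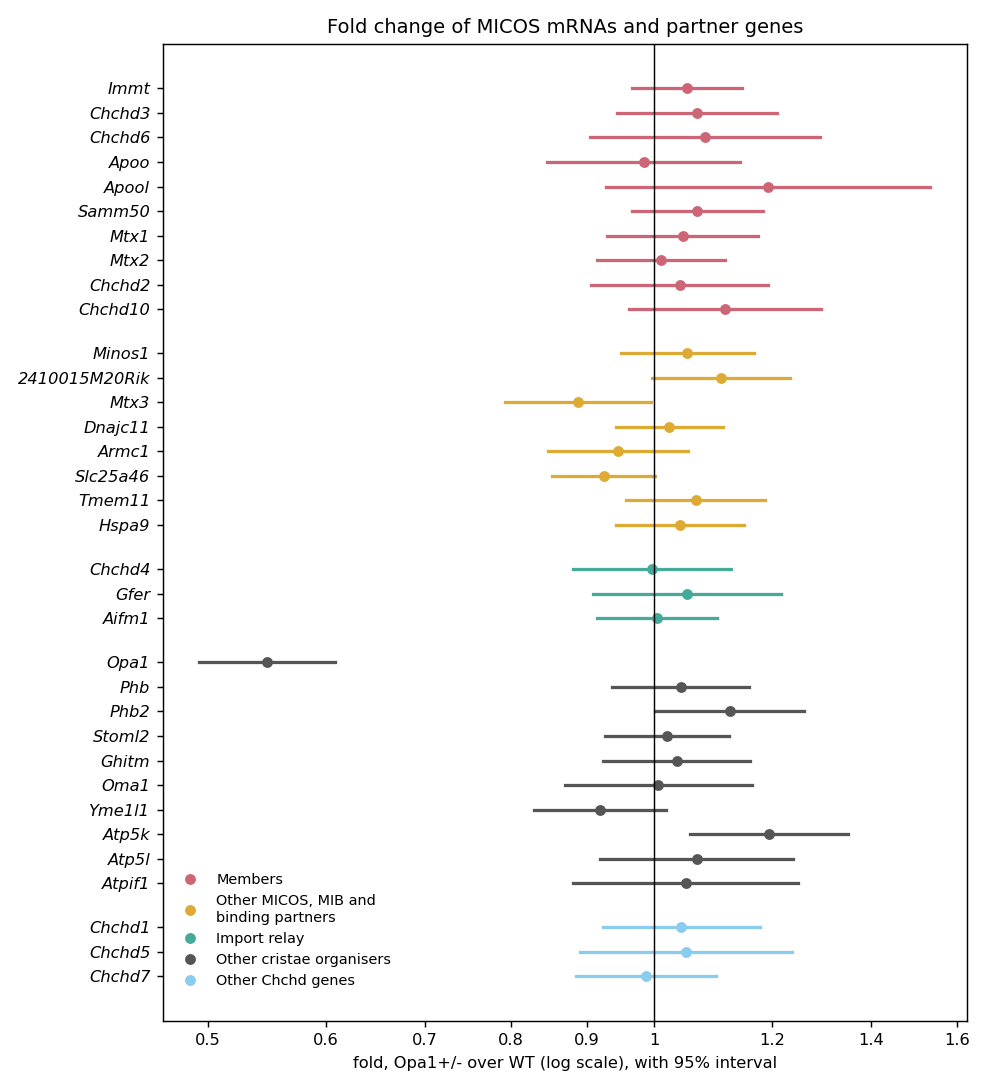
Fold, Opa1+/- over WT, on a log scale with 95% intervals from edgeR's fit, for the 10 cristae junction genes (red) and 24 partner genes by list. The interval of Opa1 (0.493 to 0.609) stands apart, and the intervals of all 10 cristae junction genes cover 1.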

How the data were processed

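Cochlear RNA of 4 WT and 4 Opa1+/- mice was sequenced with CORALL libraries and paired reads of 80 nucleotides. The authors mapped reads to GRCm38 with STAR, used molecular identifiers against amplification bias and deposited raw counts, whole numbers per gene symbol, 1 set for each mouse. The paper's methods name the CORALL Data Analysis Pipeline for the raw data, while the program that counted reads per gene and its use of strand are not given in the sources used here. Of the entries, 15 carry a number instead of a symbol (0.112% to 0.124% of counts) and were left out. Positions come from GENCODE vM21, which holds 45236 of 47502 distinct symbols.

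Library sizes were counts on named genes, scaled by TMM factors from edgeR 4.0.16 (0.948 to 1.06). Genes with a mean over 10 DESeq2-normalized counts were tested, 19366 in all, with edgeR's quasi-likelihood test, Benjamini-Hochberg adjustment and a threshold of 0.05. For the standard error, the size of the log2 fold change was divided by the square root of F, and 95% intervals follow from it. Ratios within pairs used an exact two-sided permutation test. The fit was tested on simulated data. Replicates are separate mice. Apool had the fewest counts of the 10 genes, 118 to 230 per mouse.

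The 10 genes, the partner lists and the marker lists were chosen with earlier results of these data known. Of the partners, Opa1, the 2 with the lowest p in each list and any past the adjusted threshold are named, and near-identical transcripts are those with at least 90% identity over at least 100 bases (blastn 2.17.0). Alternatives were DESeq2 size factors, total counts, library sizes without mitochondrial genes, other filters, robust estimation, DESeq2 1.42.0, limma 3.58.1 voom with quality weights, a surrogate variable from sva 3.50.0, mice left out, and, chosen after seeing the data, pseudogene counts added. Promoter sequences are from RefSeq. Proteins were not analysed here.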

Additional observations from a re-analysis of the deposited data

Results flagged for a closer look

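Of 28 groups of 4 values examined (each gene's CPM and each count ratio in each genotype), 1 held a sample far from the others. Apool in WT mouse 5 was at 11.2 CPM, while WT mice 4, 6 and 8 lay between 7.05 and 7.13 CPM, and the gap to its nearest neighbour was 0.98 of the group's range, above Dixon's critical value for 4 samples. Chance alone flags about 1 in 20 groups. Without this mouse the log2 fold change of Apool was 0.45 and its adjusted p 0.576 in edgeR's quasi-likelihood test.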

How the results depend on the processing

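In no alternative run did any of the 10 cristae junction genes reach the adjusted threshold, and the lowest adjusted p among them was 0.470 (Chchd10, limma voom with quality weights). At an unadjusted p under 0.05 the count was 1 with limma voom (Chchd10, higher, against 5.29% of all tested genes) and 0 to 1 with 1 mouse left out: Apool was higher without WT mouse 5 (3.37% of tested genes) and Chchd10 without WT mouse 6 (3.96%). The median log2 fold change of the 10 ran from 0.04 without WT mouse 8 to 0.12 without WT mouse 5. In the order of levels, 1 gene kept its rank with the longest coding transcript as the length and 8 did with pseudogene counts added, an alternative chosen after seeing the data. Opa1 had log2 fold changes of -0.90 to -0.83 with 1 mouse left out, with an edgeR adjusted p of 0.0704 without Opa1+/- mouse 2 (log2 fold change -0.85). Without both Opa1+/- mice with 3-digit numbers it was -0.86, with an adjusted p of 0.260. The count of partner genes past the adjusted threshold was accordingly 0 to 1 with 1 mouse left out and 0 without both of those mice.

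Log2 fold changes close to 0 turned sign. Aifm1 was at -0.000123 with DESeq2 size factors and -0.0205 with total counts, and Mtx2 at -0.0123 with total counts. With 1 mouse left out, Aifm1 ran from -0.0183 to 0.0458, Mtx2 from -0.0171 to 0.0521, Apoo from -0.0977 to 0.0613, Chchd2 from -0.0233 to 0.117, Gfer from -0.000832 to 0.106 and Chchd5 from -0.00852 to 0.129. Without both 3-digit mice, Chchd2 was at -0.0256, Gfer at -0.0117 and Chchd5 at -0.0142. Of the count ratios, the log2 difference with 1 mouse left out ran from -0.136 to 0.0806 for Chchd3 over Chchd6, from -0.0128 to 0.0863 for Mtx1 over Mtx2 (-0.0170 without both 3-digit mice), from -0.165 to -0.0608 for Chchd2 over Chchd10 and from -0.456 to -0.208 for Apoo over Apool. The cause was not tested.

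Over all genes, 5 passed the adjusted threshold in edgeR and 23 with DESeq2. At an unadjusted p under 0.05, 679 genes were higher and 623 lower with TMM scaling, against 459 and 778 with total counts, which moved the median log2 fold change of all genes to -0.03. No paired analysis was possible because no animal number occurs in both genotypes. The p-values rest on 4 mice per genotype, and for the 10 genes every fold inside the stated intervals remains possible.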
